A study of Homo sapiens with 12 samples.

Results

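The Krüppel-like factors (KLFs) are transcription factors that bind DNA through zinc fingers. The 10 genes described here, KLF2, KLF3, KLF4, KLF5, KLF6, KLF7, KLF9, KLF10, KLF11 and KLF13, were taken by symbol from the 26485 genes counted in OVCAR8, a human line established from an ovarian carcinoma. Cells were treated for 7 h with vehicle (control), with 150 nM EC359, an inhibitor of the receptor LIFR, with 100 nM trametinib, an inhibitor of the kinases MEK1 and MEK2, or with both agents (the combination group). Each of the 4 groups had 3 RNA-seq libraries, 12 in all. No source says that the 3 libraries of a group came from separate cultures, so the p-values measure only the spread between these libraries, which may be technical. All the cells came from 1 line, and RNA was taken at 1 time after 1 dose of each agent.

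KLF proteins recognise GC-rich and CACCC sequences, which they share with the related SP factors, and they differ in what they do once bound. KLF2, KLF4, KLF5, KLF6 and KLF7 mainly activate genes, although KLF4 also represses. KLF3 represses through the corepressor CtBP. KLF9, KLF10, KLF11 and KLF13 recruit the corepressor SIN3A. Many of the genes are switched on rapidly by serum, cytokines, shear stress or hormones, and in epithelial cells the family is known for its part in proliferation, differentiation and arrest of the cell cycle.

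The libraries held 24790392 to 32467283 reads on genes, and 14865 genes passed the filter on low counts, all 10 KLF genes among them. Levels are stated in CPM, meaning reads of a gene relative to the whole library after TMM normalization, and a count of 0 would allow at most 0.0924 to 0.121 CPM at this depth (3 counts, counting error only). The epithelial keratins KRT7, KRT8 and KRT18 stood between 780 and 1960 CPM and PAX8 between 73.7 and 123 CPM in the 12 libraries, whereas WT1 did not exceed 4.68 CPM and MUC16 did not exceed 0.0403 CPM. Of the markers of other cell types, PTPRC and CD3E were at 0 in every library, and COL1A1, at 219 to 525 CPM, made up most of that list while COL3A1 stayed under 0.178 CPM. The summed level of the OVCAR8 list was 4200 to 4250 CPM in control, 3780 to 3810 with EC359, 3800 to 3920 with trametinib and 3540 to 3690 in the combination group, and that of the other cell types was 435 to 453, 209 to 221, 545 to 559 and 298 to 319 CPM. Their part in the KLF results was not tested. DUSP6 and SPRY4, feedback genes of the ERK pathway, averaged 4.08 and 19.5 CPM in control, 14.9 and 81.0 CPM with EC359, 0.0953 and 0.247 CPM with trametinib, and 1.54 and 1.51 CPM in the combination group. In bulk RNA, a change in the number of cells that express a gene and a change in the RNA per cell cannot be told apart.

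Promoters are shown of KLF4, KLF2, KLF9 and KLF6, the 4 KLF genes with a window whose increase in the combination group was largest. That of KLF11 is shown because it alone of the genes searched held a cyclic AMP response element (CRE). The windows run from 250 bases before to 50 bases after a RefSeq start site in GRCh38.p14, 5′ to 3′ on the strand of the gene. Capitals mark GC boxes (GGGCGG), EGR motifs (GCGGGGGCG), the CRE (TGACGTCA) and the MEF2 motif on either strand, and overlapping motifs run together. The sequences were chr19:16324576-16324875 on the plus strand for KLF2, chr9:107489720-107490019 on the minus strand for KLF4, chr10:3785160-3785459 on the minus strand for KLF6, chr9:70414608-70414907 on the minus strand for KLF9 and chr2:10043971-10044270 on the plus strand for KLF11.
KLF2: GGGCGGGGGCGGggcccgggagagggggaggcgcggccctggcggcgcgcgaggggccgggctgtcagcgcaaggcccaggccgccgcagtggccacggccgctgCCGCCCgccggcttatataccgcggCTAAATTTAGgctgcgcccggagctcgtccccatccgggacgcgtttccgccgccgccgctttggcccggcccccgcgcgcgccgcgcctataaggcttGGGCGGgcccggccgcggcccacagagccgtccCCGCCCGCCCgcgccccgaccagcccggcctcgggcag
KLF4: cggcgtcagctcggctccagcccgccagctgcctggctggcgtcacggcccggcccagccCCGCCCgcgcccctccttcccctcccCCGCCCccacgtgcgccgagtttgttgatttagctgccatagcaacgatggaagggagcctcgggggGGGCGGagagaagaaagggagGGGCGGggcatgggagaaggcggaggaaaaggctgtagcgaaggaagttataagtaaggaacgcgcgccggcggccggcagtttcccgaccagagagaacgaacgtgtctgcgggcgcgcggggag
KLF6: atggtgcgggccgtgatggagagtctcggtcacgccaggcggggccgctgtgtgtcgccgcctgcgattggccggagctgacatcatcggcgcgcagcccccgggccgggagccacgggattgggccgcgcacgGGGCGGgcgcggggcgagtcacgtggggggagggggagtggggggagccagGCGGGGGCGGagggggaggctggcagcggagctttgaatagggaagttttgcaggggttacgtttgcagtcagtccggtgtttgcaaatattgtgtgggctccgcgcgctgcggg
KLF9: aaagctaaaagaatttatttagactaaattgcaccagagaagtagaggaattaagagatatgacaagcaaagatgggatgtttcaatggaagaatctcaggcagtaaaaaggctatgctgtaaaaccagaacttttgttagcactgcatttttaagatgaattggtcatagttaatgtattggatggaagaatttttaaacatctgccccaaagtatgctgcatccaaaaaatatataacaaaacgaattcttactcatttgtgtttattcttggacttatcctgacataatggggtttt
KLF11: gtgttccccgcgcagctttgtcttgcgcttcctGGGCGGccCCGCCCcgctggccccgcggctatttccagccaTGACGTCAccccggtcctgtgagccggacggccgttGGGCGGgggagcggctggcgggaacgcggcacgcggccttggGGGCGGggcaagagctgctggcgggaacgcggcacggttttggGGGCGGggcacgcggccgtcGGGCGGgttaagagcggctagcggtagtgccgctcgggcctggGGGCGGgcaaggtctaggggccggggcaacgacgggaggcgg

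The windows of KLF2, KLF4, KLF6 and KLF11 were GC-rich, at 80.7%, 69.0%, 70.7% and 75.3% G and C, against a median of 58.7% over 35116 RefSeq windows. The window of KLF9 held 32.7% and none of the 9 motifs searched. Counting from the start site as 0, the MEF2 motif of KLF2 ran from -120 to -111, its EGR motif from -248 to -240, and the EGR motif of KLF6 from -65 to -57, overlapping a GC box there. MEF2 factors are known to act on KLF2 and KLF4 downstream of the kinase ERK5, and the MEF2 motif was added to the search after the data were seen. The CRE of KLF11 ran from -176 to -169 and overlapped a CACCC box at its last bases.

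In all, 13 windows from 8 of the 10 genes were searched. KLF3 had none in the table, and KLF10 was left out of the search and is not reported here. GC boxes stood in 8 of the 13 windows, from 7 genes, against 45.0% of all windows. The KLF box itself (CACCC) was in 7 of the 13, from 4 genes, against 59.9% of all windows. The AP-1 motif (TGACTCA) was in 0 of the 13, against 4.95% of all windows. Single windows held the CRE (1.85% of all windows), the MEF2 motif (1.86%) and, all in KLF7, a STAT motif (TTCNNNGAA, 7.66%), a heat shock element core (GAANNTTC, 6.77%) and an SRE CArG box (1.29%). The EGR motif, in 5.07% of all windows, was in those of KLF2 and KLF6. These matches of letters are a description of the windows.

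In control cells the 10 genes covered a wide range of levels. Per kb of annotated exon, KLF6 was highest, at 56.21 ± 1.18 CPM per kb (SD, n = 3), followed by KLF2 at 33.0 ± 1.23. KLF10 at 20.6 ± 0.123 and KLF5 at 19.2 ± 0.570 came next, then KLF3 at 7.44 ± 0.288. KLF11 at 3.09 ± 0.223 and KLF4 at 2.76 ± 0.304 overlapped between libraries. KLF7 had 1.60 ± 0.115, KLF13 1.05 ± 0.0441 and KLF9, the lowest, 0.313 ± 0.0267 CPM per kb. The other neighbours in this order did not overlap.

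The order changed little with EC359, where KLF6 (326 CPM per kb) and KLF2 (259) stayed at the top, and KLF5 at 55.0 ± 0.0399 passed KLF10 at 38.1 ± 1.06 CPM per kb. KLF9 rose from 0.313 to 2.26 CPM per kb and then overlapped KLF13, at 2.35. The largest change of place came in the combination group, where KLF4 at 23.1 ± 0.257 CPM per kb stood above KLF3 at 17.8 ± 0.331 and KLF11 at 17.2 ± 0.731, which overlapped each other. With trametinib alone KLF4, at 1.98 ± 0.0844, overlapped KLF7, at 1.86 ± 0.0902 CPM per kb. KLF13 is annotated on chromosome 15 and again on an alternate contig, so its level is uncertain, and its value per kb uses the 7121 bases of the copy on chromosome 15.

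**Figure D1:**
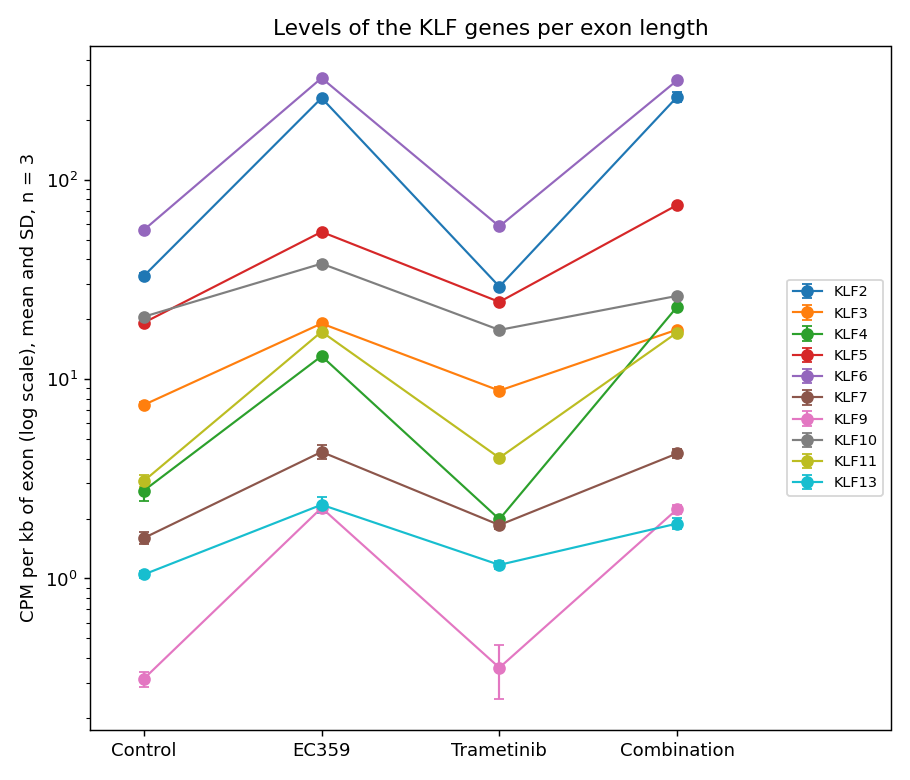
Mean level of each KLF gene in the 4 groups, in CPM per kb of exon on a log scale, with the SD of 3 libraries as error bars and lines that join the groups only to follow a gene. KLF6 and KLF2 lead in all 4 groups, KLF9 is the lowest in control (0.313) and overlaps KLF13 with EC359, and KLF4 climbs to 23.1 in the combination group.

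Added up, the 10 genes gave 549 ± 6.14 CPM in control and 576 ± 4.02 CPM with trametinib (SD, n = 3 each). With EC359 the sum was 2575 ± 20.3 CPM, and in the combination group it was 2590 ± 36.0 CPM (SD, n = 3 each). KLF6 alone made up 47.7 ± 0.512% of the sum in control, 59.0 ± 0.266% with EC359, 47.4 ± 0.604% with trametinib and 57.1 ± 0.990% in the combination group. Unlike the levels per kb above, these sums and shares are not corrected for exon length, which was 4662 bases in KLF6 and 1649 in KLF2.

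Compared to control, EC359 raised all 10 KLF genes, and 9 of them at least 2-fold, in the edgeR quasi-likelihood test with Benjamini-Hochberg adjustment over all genes. Of all genes tested, 30.8% were called higher, 30.3% lower, and 4.19% at least 2-fold higher. The median log2 fold change of the KLF genes was 1.88, from 0.88 (KLF10) to 2.97 (KLF2), against -0.01 over all genes. In each of the 10 genes every EC359 library lay above every control library, as in 32.4% of all genes.

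Among the activators, KLF6, a gene known to restrain growth in several epithelia, lies on chromosome 10 from 3775996 to 3785281 (minus strand, hg38). It measured 261, 257 and 268 CPM in control and 1539, 1507 and 1509 CPM with EC359. Its libraries stood close together within each group and far apart between them, with a log2 fold change of 2.53 (SE 0.024, 5.79-fold, edgeR adjusted p = 1.27e-60). Only 5 genes of the 14865 had a smaller p-value in this comparison.

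KLF2, known for keeping endothelial cells and T cells quiescent, lies on chromosome 19 from 16324840 to 16327528 (plus strand). It measured 55.5, 55.8 and 52.1 CPM in control and 420.2, 427 and 432 CPM with EC359. This was the largest change of the family, with a log2 fold change of 2.97 (SE 0.036, 7.84-fold, edgeR adjusted p = 2.28e-34), and 43 genes of all those tested had a larger one. KLF4, a factor of epithelial differentiation and of reprogramming to pluripotency, lies on chromosome 9 from 107484852 to 107489766 (minus strand). It measured 8.57, 7.07 and 8.65 CPM in control and 38.6, 38.4 and 38.1 CPM with EC359, a log2 fold change of 2.24 (SE 0.062, edgeR adjusted p = 3e-37). The spread of KLF4 was wider in control (CV 11.0%) than with EC359 (CV 0.726%).

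KLF5, which promotes proliferation in many epithelia, lies on chromosome 13 from 73054976 to 73077542 (plus strand). It measured 70.2, 71.9 and 74.4 CPM in control and 206, 206 and 206 CPM with EC359, a log2 fold change of 1.51 (SE 0.029, edgeR adjusted p = 5.62e-45). KLF7, best known from developing neurons, spans chromosome 2 from 207074138 to 207167246 (minus strand). It measured 15.1, 13.1 and 14.4 CPM in control and 41.7, 37.9 and 35.4 CPM with EC359, a log2 fold change of 1.44 (SE 0.063, edgeR adjusted p = 1.06e-26). The increases of KLF5 and KLF7 were each smaller than those of KLF2, KLF4 and KLF6, whose 95% intervals lay apart from theirs.

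The repressors also rose. KLF3, on chromosome 4 from 38664169 to 38701508 (plus strand), measured 43.1, 40.0 and 42.2 CPM in control and 106, 111 and 104 CPM with EC359, a log2 fold change of 1.36 (SE 0.038, edgeR adjusted p = 4.12e-37). It overlaps the antisense gene KLF3-AS1 over 286 bases on the other strand, and the authors counted reads by strand. KLF9, a gene induced by glucocorticoids and thyroid hormone, lies on chromosome 9 from 70384597 to 70414657 (minus strand). It measured 1.71, 1.71 and 1.47 CPM in control and 11.5, 12.3 and 11.6 CPM with EC359. The lowest of the 10 in control thus showed the next largest increase after KLF2, with a log2 fold change of 2.85 (edgeR adjusted p = 7.12e-26). Its standard error of 0.14 was, however, the widest of the 10.

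KLF11, a target of TGF-beta that also bears on insulin expression, lies on chromosome 2 from 10043555 to 10054836 (plus strand). It measured 13.9, 13.7 and 12.2 CPM in control and 76.0, 72.6 and 74.9 CPM with EC359, a log2 fold change of 2.49 (SE 0.051, edgeR adjusted p = 6.69e-44). Its close relative KLF10, also induced by TGF-beta, lies on chromosome 8 from 102648777 to 102655902 (minus strand). KLF10 measured 73.6, 74.4 and 74.3 CPM in control and 140.2, 138 and 133 CPM with EC359. It was the only one of the 10 under 2-fold, with a log2 fold change of 0.88 (SE 0.032, edgeR adjusted p = 6.73e-32). KLF13, known from T cells and the heart, lies on chromosome 15 from 31326855 to 31435665 (plus strand). It measured 7.39, 7.80 and 7.18 CPM in control and 18.4, 16.2 and 15.5 CPM with EC359, a log2 fold change of 1.16 (SE 0.085, edgeR adjusted p = 4.41e-18). The related pair KLF10 and KLF11 therefore differed in size of response, with 95% intervals of 0.82 to 0.95 and 2.39 to 2.59 on the log2 scale.

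**Figure D2:**
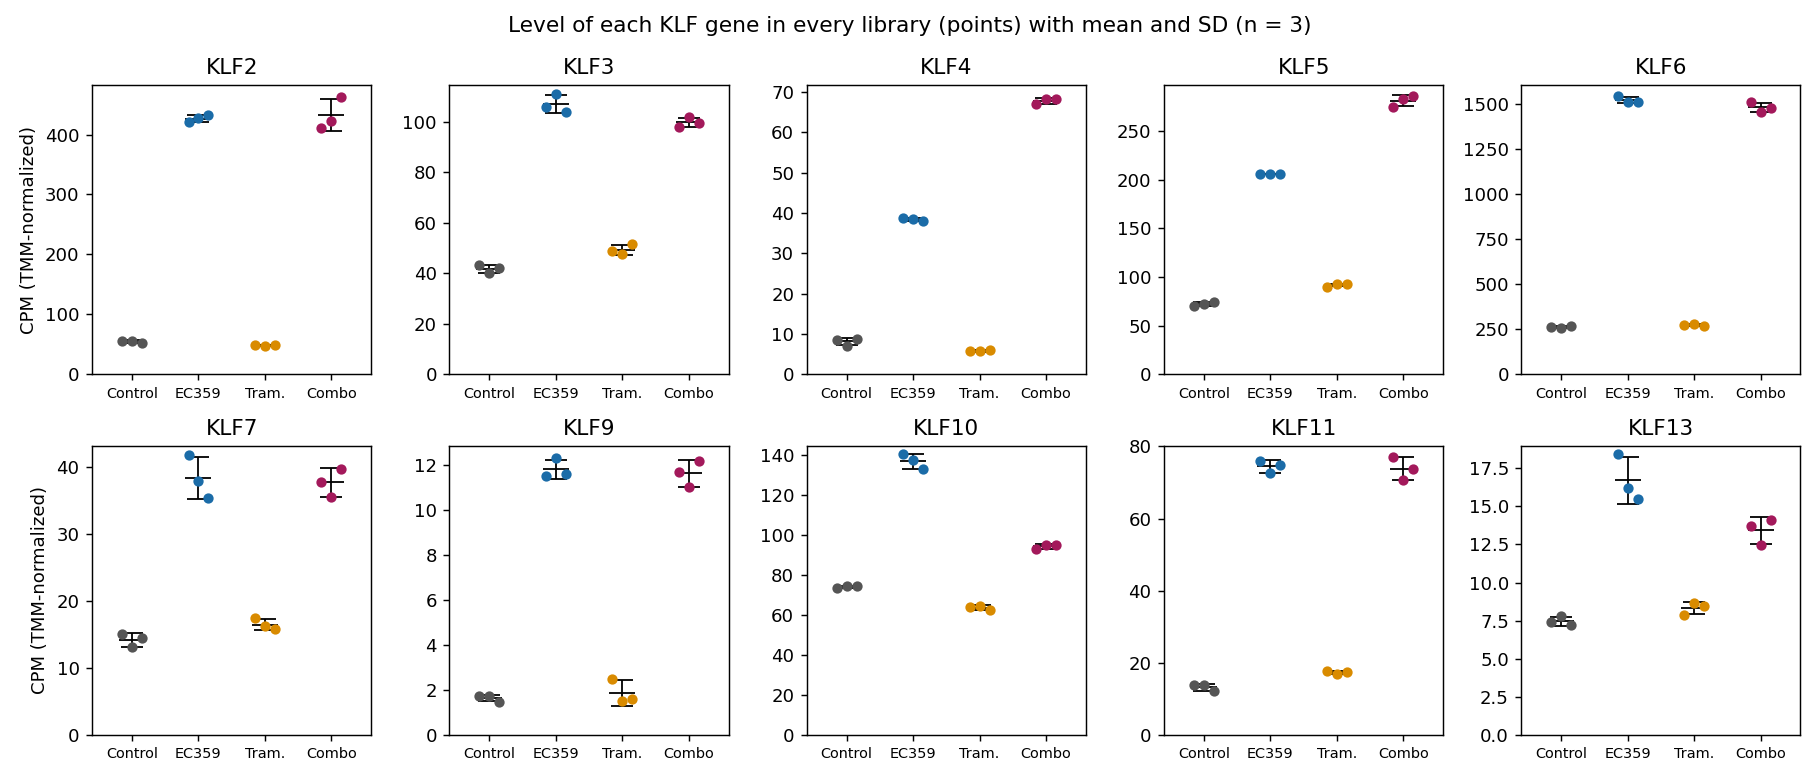
Level of each KLF gene in CPM in every library of the 4 groups (points), with the mean and SD of 3 libraries, each panel with its own axis from 0. All EC359 and combination libraries stand above all control libraries in each panel, and KLF4 and KLF5 are higher in the combination group than with EC359, whereas KLF10 is lower (94.3 against 137 CPM).

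Trametinib alone changed the KLF genes little. It raised 4, lowered 3 and left 3 without a call, against 13.0% of all genes called higher and 15.2% called lower. No KLF gene reached 2-fold, and the share of all genes that did was not counted. The median log2 fold change was 0.18 against 0.00 over all genes. The genes that fell were KLF2, KLF4 and KLF10.

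KLF4 measured 5.65, 5.70 and 6.10 CPM with trametinib, all below the control libraries, a log2 fold change of -0.48 (SE 0.081, edgeR adjusted p = 3.47e-06). KLF10 measured 63.9, 64.6 and 62.3 CPM, a log2 fold change of -0.22 (SE 0.034, edgeR adjusted p = 3.49e-07). KLF2 measured 49.0, 47.4 and 48.1 CPM, a log2 fold change of -0.17 (SE 0.042, edgeR adjusted p = 0.00176). For these 3 genes every trametinib library lay below every control library, as in 20.4% of all genes.

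KLF11, the gene that rose most, measured 17.7, 16.8 and 17.5 CPM, a log2 fold change of 0.39 (SE 0.060, edgeR adjusted p = 4.08e-07). KLF5 measured 90.1, 92.8 and 92.3 CPM, a log2 fold change of 0.34 (SE 0.031, edgeR adjusted p = 7.37e-14). KLF3 measured 48.7, 47.5 and 51.6 CPM, a log2 fold change of 0.24 (SE 0.041, edgeR adjusted p = 3.53e-06). In these 3 genes, and in KLF6, KLF7 and KLF13, every trametinib library lay above every control library, as in 19.7% of all genes. KLF7 measured 17.4, 16.2 and 15.9 CPM, a log2 fold change of 0.22 (SE 0.068, edgeR adjusted p = 0.0101), and this call was lost without control replicate 2 (log2 fold change 0.16, edgeR adjusted p = 0.103) or without trametinib replicate 1 (0.18, edgeR adjusted p = 0.087).

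The 3 genes without a call were KLF6, KLF9 and KLF13. KLF6 measured 272, 279 and 268 CPM, with a log2 fold change of 0.06 (95% interval 0.01 to 0.11, edgeR adjusted p = 0.0544). It was called without control replicate 3 (edgeR adjusted p = 0.0294) or without trametinib replicate 3 (edgeR adjusted p = 0.042). KLF13 measured 7.86, 8.66 and 8.47 CPM, a log2 fold change of 0.16 (95% interval -0.02 to 0.34). KLF9 measured 2.50, 1.48 and 1.59 CPM, and its value of 0.20 (95% interval -0.12 to 0.52) rested on trametinib replicate 1, without which it was -0.08.

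In the combination group, all 10 KLF genes were again higher than in control, 8 of them at least 2-fold. Among all genes tested, 35.0% were called higher, 34.7% lower and 7.27% at least 2-fold higher. The median log2 fold change of the KLF genes was 2.22, against -0.01 over all genes, and the range ran from 0.35 (KLF10) to 3.07 (KLF4). This comparison uses the control libraries of the comparisons above, so the values of the KLF genes in them are not independent.

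KLF4 had the largest increase. Its combination libraries measured 67.0, 68.3 and 68.3 CPM, a log2 fold change of 3.07 (SE 0.060, 8.38-fold, edgeR adjusted p = 5.3e-45), and 50 of all genes had a larger one, against 96 with EC359 alone. KLF2 measured 411, 423 and 462 CPM, a log2 fold change of 2.99 (SE 0.036, edgeR adjusted p = 1.21e-34). KLF9 measured 11.7, 11.0 and 12.2 CPM, a log2 fold change of 2.83 (SE 0.14, edgeR adjusted p = 6.12e-26). In all 10 KLF genes every combination library lay above every control library, as in 36.0% of all genes.

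KLF6 measured 1506, 1454 and 1475 CPM (log2 fold change 2.50, SE 0.024), and KLF11 measured 77.0, 70.7 and 73.8 CPM (log2 fold change 2.48, SE 0.051). KLF5 measured 275, 283 and 286 CPM, with a log2 fold change of 1.96 (SE 0.029). KLF7 measured 37.8, 35.5 and 39.8 CPM (log2 fold change 1.41, SE 0.063), and KLF3 98.1, 102 and 99.5 CPM (log2 fold change 1.26, SE 0.038). These were the genes above 2-fold. KLF13 measured 13.7, 12.4 and 14.1 CPM, a log2 fold change of 0.85 (SE 0.086, edgeR adjusted p = 4.78e-13). KLF10 measured 93.0, 94.9 and 95.1 CPM, a log2 fold change of 0.35 (SE 0.033, edgeR adjusted p = 4.29e-14), and 3681 genes had a larger one, against 824 with EC359 alone.

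**Figure D3:**
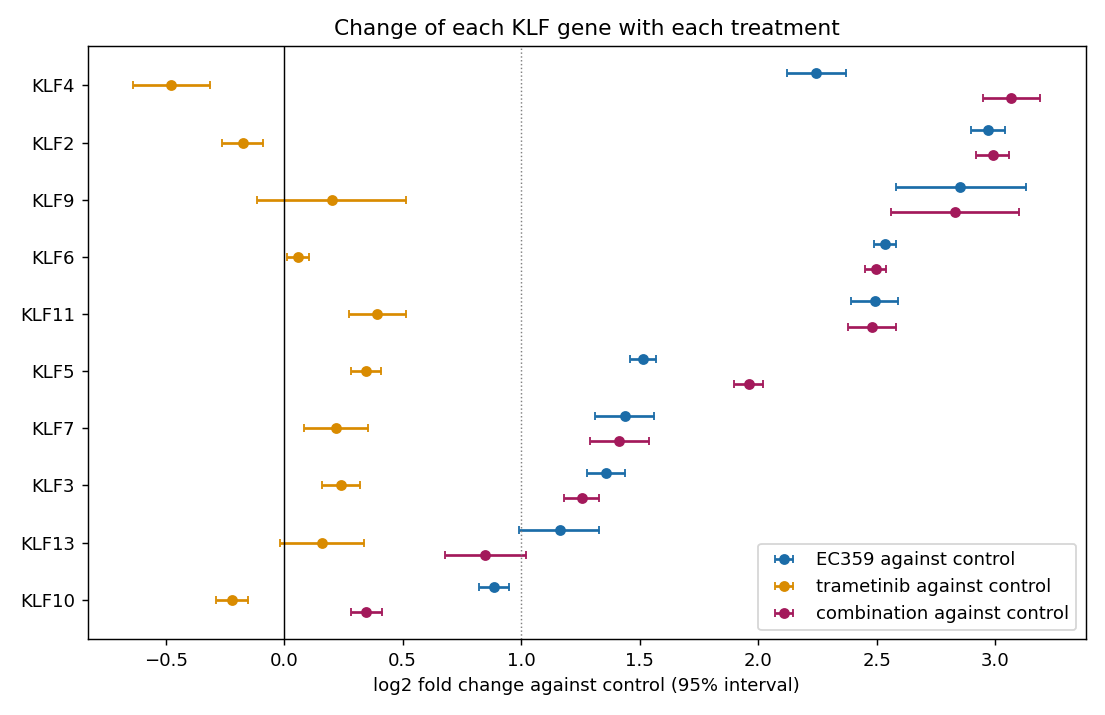
Log2 fold change of each KLF gene against control with EC359, trametinib and the combination, with 95% intervals of the edgeR fit, where the dotted line marks 2-fold and genes are ordered by the combination. EC359 and combination points stand from 0.35 to 3.07, trametinib points from -0.48 to 0.39, and the combination exceeds EC359 alone clearly for KLF4 (3.07 against 2.24) and KLF5 (1.96 against 1.51).

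Adding trametinib to EC359 moved KLF genes in both directions. Compared to EC359 alone, the combination group had 2 KLF genes higher, KLF4 and KLF5, 3 lower, KLF3, KLF10 and KLF13, and 5 without a call, whereas 24.1% of all genes were called higher and 25.2% lower. The median log2 fold change was -0.02, against 0.00 over all genes. No KLF gene reached 2-fold, in a comparison where the share of all genes at 2-fold was not counted.

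KLF4 rose from 38.4 ± 0.279 CPM with EC359 to 67.9 ± 0.754 CPM with both (SD, n = 3 each). This was a log2 fold change of 0.82 (SE 0.050, 1.77-fold, edgeR adjusted p = 5.54e-21). KLF5 rose from 206 ± 0.149 to 281 ± 5.42 CPM, a log2 fold change of 0.45 (SE 0.026, edgeR adjusted p = 1.84e-21). KLF10 fell from 137 ± 3.80 to 94.3 ± 1.16 CPM, a log2 fold change of -0.54 (SE 0.031, edgeR adjusted p = 1.16e-21). These 3 genes had the largest differences of the 10. In KLF4 and KLF5 every combination library lay above every EC359 library, as in 26.8% of all genes.

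KLF13 fell from 16.7 ± 1.53 to 13.4 ± 0.881 CPM, a log2 fold change of -0.31 (SE 0.081, edgeR adjusted p = 0.00102). KLF3 fell from 107 ± 3.64 to 99.8 ± 1.86 CPM, a log2 fold change of -0.10 (SE 0.035, edgeR adjusted p = 0.0122), and this call was lost without EC359 replicate 2 (log2 fold change -0.08, edgeR adjusted p = 0.113). In these genes, KLF10 and, without a call, KLF6, every combination library lay below every EC359 library, as in 27.0% of all genes.

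For the other 5 genes the interval of the difference between the groups covered both directions, though only narrowly in KLF6. The 95% interval of the log2 fold change was -0.04 to 0.08 for KLF2, -0.08 to 0.01 for KLF6 and -0.10 to 0.07 for KLF11. It was -0.14 to 0.09 for KLF7 and, with the fewest reads, -0.25 to 0.21 for KLF9. A larger difference was therefore compatible with these data in KLF9 than in KLF6. In KLF2 the direction turned on combination replicate 3, at 462 CPM, since the log2 fold change was 0.02 with it and -0.03 without it.

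The interaction asks whether the effect of trametinib differed with and without EC359, as the combination minus the sum of the single agents on the log2 scale. It was called higher in 3 KLF genes, KLF2, KLF4 and KLF5, and lower in 6, and was not called in KLF9, against 14.4% of all genes called higher and 15.9% lower. The median over the KLF genes was -0.23, against -0.01 over all genes.

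In KLF4 the direction of the trametinib effect changed with EC359 present. Its level fell from 8.10 to 5.82 CPM without EC359 and rose from 38.4 to 67.9 CPM with it, and the interaction was 1.30 (SE 0.095, 2.46-fold, edgeR adjusted p = 1.11e-16). It was the only interaction of the 10 at 2-fold or more, and by log2 value it ranked 178 of 14865 genes. The share of all genes with an interaction at 2-fold was not counted. In KLF2 the interaction was 0.19 (SE 0.052, edgeR adjusted p = 0.00473), with a fall under trametinib alone and no call on EC359. In KLF5 it was 0.10 (SE 0.041, edgeR adjusted p = 0.0458), a call lost in 10 of the 12 fits that left out 1 library and at its weakest without control replicate 3 (log2 value 0.08, edgeR adjusted p = 0.172).

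The lower interactions were those of the SIN3A-recruiting KLF13 at -0.47 (SE 0.12, edgeR adjusted p = 0.00167), KLF11 at -0.41 (SE 0.073, edgeR adjusted p = 1.34e-05) and KLF10 at -0.32 (SE 0.046, edgeR adjusted p = 1.95e-07), and of KLF3 at -0.34 (SE 0.054, edgeR adjusted p = 9.31e-07). They took different forms. KLF11 rose with trametinib alone and had no call on EC359, while KLF3 rose with trametinib alone and fell on EC359, and KLF10 fell in both settings but more on EC359. KLF7 at -0.24 (edgeR adjusted p = 0.0303) and KLF6 at -0.10 (edgeR adjusted p = 0.0168) were smaller. The call of KLF7 was lost without control replicate 2, EC359 replicate 1, trametinib replicate 1 or combination replicate 2, and that of KLF6 without control replicate 2, trametinib replicate 2 or combination replicate 2. For KLF9 the value was -0.22 (95% interval -0.61 to 0.17), and it was 0.06 without trametinib replicate 1.

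**Figure D4:**
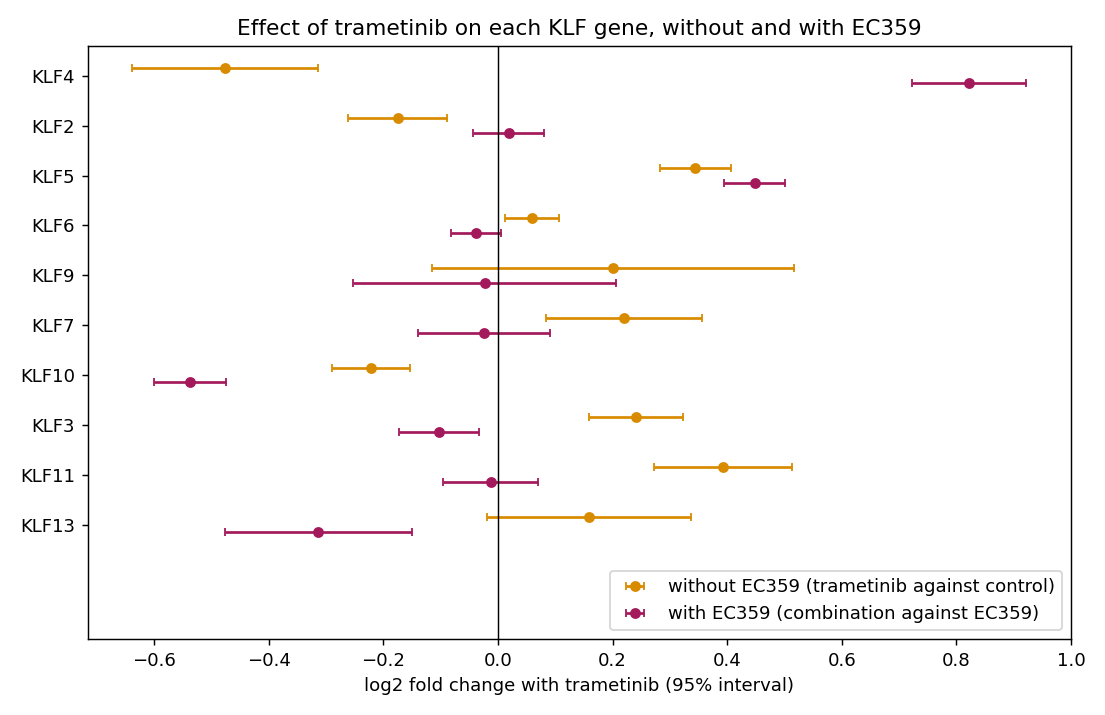
Log2 fold change of each KLF gene with trametinib, without EC359 (trametinib against control) and with it (combination against EC359), with 95% intervals, ordered by the interaction. The points of KLF4 lie on opposite sides of 0 (-0.48 and 0.82), those of KLF5 are both above 0, and those of KLF10 are both below 0 (-0.22 and -0.54).

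Adding EC359 to trametinib raised all 10 KLF genes, 8 at least 2-fold, with 35.3% of all genes called higher, 32.9% lower and 6.12% at least 2-fold higher. The median log2 fold change was 1.85, against 0.00 over all genes. KLF4 rose from 5.82 ± 0.247 CPM with trametinib to 67.9 ± 0.754 CPM with both (SD, n = 3 each). This was a log2 fold change of 3.54 (SE 0.063, 11.6-fold, edgeR adjusted p = 1.05e-46), the largest of any KLF gene in any comparison here. KLF2 followed at 3.16, then KLF9 at 2.63, KLF6 at 2.44, KLF11 at 2.09, KLF5 at 1.62, KLF7 at 1.19 and KLF3 at 1.02. KLF13 at 0.69 and KLF10 at 0.57 stayed under 2-fold. In all 10 every combination library lay above every trametinib library, as in 36.0% of all genes.

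Across the 12 libraries, the log2 CPM of the KLF genes ran largely in parallel, as a description in which the 4 groups supply most of the spread. Pearson's r was highest for KLF2 with KLF6 (0.997) and lowest for KLF5 with KLF10 (0.725). KLF4 had the widest range of group means, 3.53 on the log2 scale. The genes whose pattern was most like that of KLF4, by Pearson's r of log2 CPM over 12 libraries among 13602 genes, were MED17 (0.997), ZNF703 (0.996), PRPF38B (0.996), USP53 (0.996) and MAP7D1 (0.996). Their order of groups was that of KLF4, but their changes were smaller, as in ZNF703, with means of 27.9, 77.8, 25.0 and 102 CPM in control, EC359, trametinib and combination.

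Of 8 further KLF genes, KLF18 was not among the genes counted, KLF1 and KLF17 had at most 3 counts in a library, and 5 were tested. With EC359, 2 of the 5 were higher and 1 lower, and in the combination group 1 was higher and 0 lower. Trametinib alone lowered 1 and raised 0. Of all genes, 30.8% were called higher and 30.3% lower with EC359, 13.0% and 15.2% with trametinib, and 35.0% and 34.7% in the combination group, and the counts of the further KLF genes were not tested against these shares. Named after their values were seen, KLF12, a CtBP-dependent repressor like KLF3, had log2 fold changes of 0.99 with EC359 and 0.87 in the combination group, and KLF16 had 0.57 with EC359 and -0.35 with trametinib. KLF15 fell with EC359 by 1.70 on the log2 scale (edgeR adjusted p = 0.0142), on only 2 to 13 counts per library.

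Of the 9 SP factors, relatives that bind GC boxes, 8 were tested. EC359 raised 5 and lowered 0, trametinib raised 4 and lowered 0, and the combination raised 6 and lowered 1, with medians of 0.38, 0.18 and 0.48 on the log2 scale. The shares over all genes were 30.8% higher and 30.3% lower with EC359, 13.0% and 15.2% with trametinib, and 35.0% and 34.7% in the combination group. SP8 moved most, with log2 fold changes of 2.07, 1.39 and 2.57 in that order, at a mean of 0.268 CPM in control. Of 12 cofactors of KLF proteins, EC359 raised 5 and lowered 2, trametinib raised 4 and lowered 2, and the combination raised 6 and lowered 2, beside the same shares over all genes. The acetyltransferase CREBBP, which KLF activators recruit, had log2 fold changes of 1.08, 0.15 and 1.94, the only cofactor at 2-fold or more. Of all genes, 4.19% were at least 2-fold higher with EC359 and 7.27% in the combination group.

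The MEK5-ERK5-MEF2 route, known to act upstream of KLF2 and KLF4, had 8 genes, all tested. EC359 raised 6, trametinib 4 and the combination 7, and none was lowered, beside 30.8%, 13.0% and 35.0% of all genes called higher. MEF2D rose from 38.9 ± 1.62 CPM in control to 88.8 ± 1.72 with EC359 and 101 ± 3.10 CPM in the combination group, with 37.9 ± 1.09 CPM under trametinib (SD, n = 3 each). MEF2C, at 0.834 CPM in control, reached 2-fold in the combination group only, with a log2 fold change of 1.76. Of 9 genes of KLF protein turnover, EC359 raised 5 and lowered 2, trametinib raised 0 and lowered 2, and the combination raised 4 and lowered 3. Of all genes, 30.3%, 15.2% and 34.7% were called lower in these comparisons. The ubiquitin ligase subunit FBXO32 had log2 fold changes of 1.78 with EC359 and 2.33 in the combination group.

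Of the genes known as KLF targets in other cells, 13 were tested, and THBD had no count. EC359 raised 5 and lowered 3, trametinib raised 4 and lowered 2, and the combination raised 6 and lowered 4, with medians of 0.18, -0.02 and 0.19 on the log2 scale. With EC359 and the combination these counts lay near the shares over all genes, 30.8% higher and 30.3% lower with EC359 and 35.0% and 34.7% in the combination group, with 13.0% and 15.2% for trametinib. CDKN1A, the inhibitor of cyclin-dependent kinases that KLF4 and KLF6 activate in other cells, rose from 16.7 ± 0.302 CPM to 195 ± 2.86 with EC359 and 172 ± 4.95 in the combination group, with 15.7 ± 1.08 CPM under trametinib (SD, n = 3 each). CDKN1C, at 0.509 CPM in control, had log2 fold changes of 1.87, 1.59 and 2.25. TXNIP, a thioredoxin-binding protein, fell by 1.33 with EC359 and by 2.0 in the combination group. Named after their values were seen, NOS3 and S1PR1 were also lower with EC359, with log2 fold changes of -0.39 and -0.25 (edgeR adjusted p = 0.000101 and 2e-09). In the combination group they had -0.36 and 0.19. Whether the targets follow the KLF genes was not tested.

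The 3′ untranslated regions (UTRs) of the KLF transcripts varied widely in length, from 843 bases in KLF2 and 899 in KLF4 to 7076 in KLF7. In GENCODE 29, with 1 transcript a gene, their median was 2750 bases against 1050 over 12382 tested genes with a 3′ UTR of at least 50 bases. The AU-rich pentamer ATTTA, a motif known from short-lived mRNAs, occurred at a median of 2.37 per kb in the KLF genes and 1.60 per kb in all, and 9 of the 10 lay above that median. KLF2 had the most, 3.56 per kb (3 in 843 bases), then KLF5 with 3.02 and KLF7 with 2.83 per kb, while KLF13 had 0.893 per kb. Of all these genes, 20.8% had a higher density than KLF2, 48.4% than KLF6 and 62.3% than KLF13. The nonamer TTATTTATT was in 1 KLF gene, KLF5, and in 8.39% of all genes. KLF6 had 1.69 per kb, and a relation of these densities to the increases was not tested. The count of these AU-rich motifs was chosen after the data were seen.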

How the data were processed

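RNA from 12 libraries of OVCAR8 cells was measured. The deposited values are estimated counts: per the file headers, the authors counted paired reads by strand with featureCounts 1.5.0-p1, required a mapping quality of 2, and divided reads with several placements or genes into fractions, using hg38 exons. The processing notes also name HISAT2 and bcl2fastq, without a role. Estimated counts were rounded to whole numbers.

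In R 4.3.3, 14865 of 26485 genes passed filterByExpr of edgeR 4.0.16 (count 10, total 15), and 6337 had no count. TMM factors lay between 0.947 and 1.06, and the biological coefficient of variation was 3.95%. The 4 groups entered 1 quasi-likelihood fit with robust dispersions, with Benjamini-Hochberg adjustment over all genes and a threshold of 0.05. Standard errors were derived from the F statistic. The fit was also run on simulated counts in which few genes changed, and only in the combination group. Far more genes were called in these data, so the outcome of that run does not carry over to them.

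The KLF genes and the gene lists were chosen with earlier results of these data known. All 10 are named, with at most 3 genes of each list that changed at least 2-fold, by size in the combination, 5 genes most like the KLF gene of widest range, and DUSP6 and SPRY4. Further list genes are marked as named after their values were seen. Alternatives were DESeq2 1.42.0, its size factors, total counts, other filters, only the groups compared, a replicate block, rounding down, a 2-fold minimum and each library left out. Promoters are RefSeq windows. One gene of the KLF target list is not reported here. Blots, cell assays and animal experiments were not analysed here.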

Additional observations from a re-analysis of the deposited data

Results flagged for a closer look

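In 9 of the 10 KLF genes the effect of trametinib differed with and without EC359, by the interaction term of the edgeR quasi-likelihood model at an adjusted p under 0.05, against 14.4% of all genes called higher and 15.9% called lower. On the log2 scale the difference was 1.30 in KLF4, 0.19 in KLF2 and 0.10 in KLF5, where trametinib moved the gene further upward, or less downward, with EC359 present. It was -0.47 in KLF13, -0.41 in KLF11, -0.34 in KLF3, -0.32 in KLF10, -0.24 in KLF7 and -0.10 in KLF6. Of these, KLF4 alone passed 2-fold, for which no share of all genes was counted. KLF5, KLF6 and KLF7 lost the call when single libraries were left out, as given with their values in the report.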

How the results depend on the processing

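All 10 KLF genes were higher with EC359, with the combination against control and with the combination against trametinib under every alternative tried, except that a 2-fold minimum left 9, 8 and 8. The 2-fold minimum changed the smaller effects most, from 7 called genes to 0 for trametinib against control, from 5 to 0 for the combination against EC359 and from 9 to 1 for the interaction. Without single libraries those counts ran from 6 to 8, from 4 to 5 and from 6 to 9. For these smaller effects the share of all genes at 2-fold was not counted. The values that changed sign when 1 library was left out were all without a call. They ran from -0.081 to 0.33 for trametinib against control in KLF9, and for the combination against EC359 from -0.035 to 0.051 in KLF2, from -0.079 to 0.035 in KLF7, from -0.061 to 0.013 in KLF9 and from -0.046 to 0.016 in KLF11. The interaction of KLF9 ran from -0.35 to 0.058. DESeq2, its size factors or total counts called KLF6 with trametinib (adjusted p = 0.0249, 0.0372 and 0.00504), and DESeq2 called KLF6 in the combination against EC359 (adjusted p = 0.0499). The interaction of KLF5 was lost with these scalings, with DESeq2 and without the filter (adjusted p from 0.0658 to 0.173), and that of KLF7 with DESeq2 (adjusted p = 0.0641). Apart from what their construction shows, the cause of these changes was not tested. Total counts alone moved the median of all genes by up to -0.16 on the log2 scale. Same-numbered libraries did not deviate together (r from -0.07 to 0.03 in 18 pairs, and 1 of 12 libraries closest to its own number). Libraries handled together without a shared deviation would look the same, so this cannot say whether the numbers pair them. With the replicate number as a block, the called KLF genes numbered 10, 7, 10, 5, 10 and 9 in the 6 comparisons. Depth limits KLF9 most, with 39 to 80 reads in control and trametinib libraries.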
